A study of Mus musculus with 80 samples.

Results

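The genes described here are 10 markers of fibro-adipogenic progenitors and of the connective tissue of skeletal muscle: Dcn, Lum, Dpt, Fbn1, Mfap5, Loxl1, Pdgfra, Pi16, Clec3b and Gsn. They were taken by symbol from the 10842 genes of the deposited table, and all 10 were present. Of these, 9 passed the filter on low values and entered the tests, and Mfap5 did not. Expression was measured with the mouse whole transcriptome probe set of NanoString GeoMx. Probes bound to RNA in a tissue section carry barcodes, and light aimed at an outlined area frees its barcodes for counting. A value is therefore the summed signal of all cells in an area, and fewer cells of a type and less RNA per cell cannot be told apart.

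The samples were 80 areas of 8 micron cross sections of flash-frozen tibialis anterior, a muscle of the lower leg, from 6 tau mice (39 areas) and 6 control mice (41 areas). The tau mice expressed P301L tau, a mutant form of the microtubule-binding protein known from inherited frontotemporal dementia, and carried the treatment label tauopathy. The 12 animals, of both labelled sexes, were C57Bl/6 with the genotype label WT, with controls of the same age, and no source used here gives that age or what the controls received. The deposited data carry the name P301L-AAV8. AAV8 is an adeno-associated virus used to deliver genes, and effects of tau and of the way it was delivered cannot be told apart. The areas were of 4 types: surrounding artery (20 areas, 10 tau and 10 control), nerve bundle (18, 9 and 9), central nuclei (22, 11 and 11) and normal (20, 9 and 11). Nuclei in the centre of a fibre are known from regenerated fibres. Tau animal T30 had no central nuclei area, which left 5 tau and 6 control animals for that type. No source used here says how areas were outlined, and every area carries the cell type label Myofibers. Areas lay on 3 scans, named in the header of the deposited table, each with 2 tau and 2 control animals.

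Fibro-adipogenic progenitors are the resident mesenchymal cells of muscle. They lie between the fibres and around vessels, are marked by the receptor gene Pdgfra, and make most of the collagen-rich matrix of the tissue. After injury they multiply and support the satellite cells that rebuild fibres, and in chronic disease they can give rise to scar and fat. The sheaths of vessels and nerves, the adventitia and the epineurium and perineurium, are also built by fibroblasts that share many of these genes.

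By role, the genes fall into 3 groups. Dcn (decorin) and Lum (lumican) encode small leucine-rich proteoglycans that bind collagen fibrils and limit their width, and Dpt (dermatopontin) encodes a matrix protein that binds decorin. Fbn1 encodes fibrillin-1, the backbone of the microfibrils on which elastic fibres form, Mfap5 a glycoprotein of these microfibrils, and Loxl1 an oxidase of the lysyl oxidase family that cross-links elastin. Pdgfra is the receptor for platelet-derived growth factors, Pi16 a secreted peptidase inhibitor that marks a perivascular population of fibroblasts, Clec3b the plasminogen-binding lectin tetranectin, and Gsn the actin-severing protein gelsolin, which is made both as a cytoplasmic and a secreted form and is not limited to fibroblasts. In the RefSeq annotation of GRCm38.p6 (mm10) Dcn (chromosome 10, 97479500 to 97518163) and Lum (chromosome 10, 97565501 to 97572703) are neighbours, and Loxl1 (58287723 to 58313212) and Clec3b (123150946 to 123157432) share chromosome 9. Fbn1 (125300594 to 125506485) and Gsn (35256359 to 35307902) lie on chromosome 2, Dpt on chromosome 1 (164796663 to 164824274), Pdgfra on chromosome 5 (75151322 to 75198206), Mfap5 on chromosome 6 (122513584 to 122529290) and Pi16 on chromosome 17 (29318796 to 29328903).

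RefSeq promoter windows of 300 bases, 250 before and 50 after a start of the gene, were found for 5 of the 10 genes: Dpt, Fbn1, Gsn, Pdgfra and Pi16. For Fbn1, Pdgfra and Pi16 this start lies within the gene span given above, not at its edge. The Pdgfra window lies wholly inside that span. Shown are those of Fbn1 and Dpt, matrix genes whose values were higher beside the artery than in normal areas, and that of Pdgfra, the receptor gene whose values were not; no test links these sequences to the values. Each is printed 5′ to 3′ on the gene's strand, and capitals mark a GC box or a TATA box. They are Fbn1 at chr2:125506389-125506688 (minus strand), Dpt at chr1:164796413-164796712 (plus strand) and Pdgfra at chr5:75152001-75152300 (plus strand).
Fbn1: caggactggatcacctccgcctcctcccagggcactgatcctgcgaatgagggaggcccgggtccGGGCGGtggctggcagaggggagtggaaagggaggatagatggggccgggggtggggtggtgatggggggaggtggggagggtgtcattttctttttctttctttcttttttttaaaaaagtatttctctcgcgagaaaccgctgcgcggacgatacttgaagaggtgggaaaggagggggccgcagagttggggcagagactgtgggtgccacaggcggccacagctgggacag
Dpt: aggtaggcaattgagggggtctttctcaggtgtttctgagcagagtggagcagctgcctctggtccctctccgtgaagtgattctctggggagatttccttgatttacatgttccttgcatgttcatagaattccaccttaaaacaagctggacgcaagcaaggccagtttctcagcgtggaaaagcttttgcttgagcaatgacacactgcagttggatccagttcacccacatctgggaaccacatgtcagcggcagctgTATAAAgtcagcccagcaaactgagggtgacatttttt
Pdgfra: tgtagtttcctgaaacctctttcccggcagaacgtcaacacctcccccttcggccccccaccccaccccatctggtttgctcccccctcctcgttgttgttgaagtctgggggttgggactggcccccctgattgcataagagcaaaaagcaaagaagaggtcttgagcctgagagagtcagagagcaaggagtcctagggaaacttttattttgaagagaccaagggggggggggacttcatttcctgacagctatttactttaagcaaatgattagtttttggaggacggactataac
The Fbn1 window held 1 match to the GC box, GGGCGG, which 35.7% of all 32851 windows hold at least once. The Dpt window held 1 match to the TATA box, TATAAA, which 13.6% of windows hold, and 7 copies of the E-box CANNTG, against 1 copy in the Fbn1 and 2 in the Pdgfra window (72.3% of windows hold at least 1). Both strands were searched, and a match is a description of these letters. None of these 3 windows held the CCAAT box (37.4% of all windows), the AP-1 motif TGANTCA (7.81%), the TEAD motif CATTCC (14.7%) or the CArG box (1.63%).

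The deposited values are probe signals that the authors scaled by the third quartile (Q3) of each area, without background subtraction. A negative probe, which has no target among the transcripts, gives the background of the assay. Total counts, estimated from the spacing of the values, ran from 145487 to 3356106 per area. Dcn and Gsn stood clear of the background in most areas, with medians of 5.49 and 5.07 times the negative probe over the 80 areas. Each was below the negative probe in 1 area. In the normal areas of scan 2 they averaged 1.60 (Dcn) and 2.16 times (Gsn) the negative probe. Pdgfra (2.03 times), Lum (1.98 times), Pi16 (1.85 times) and Clec3b (1.57 times) were closer to it. The remaining genes lay near it: Dpt at 1.34, Loxl1 at 1.31, Fbn1 at 1.05 and Mfap5 at 0.90 times, and Fbn1 was below the negative probe in 38 and Mfap5 in 52 of the 80 areas. These ratios describe each probe against background, and levels of different genes were not compared.

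The first comparison asks where in the muscle these genes were higher, as differences between area types within an animal. Clec3b, Gsn, Dcn and Fbn1 had the largest differences between areas surrounding an artery and normal areas, 1.34-fold to 1.57-fold higher surrounding the artery as a mean over animals, with 10 or 11 of 12 animals in that direction. No gene of the 10188 tested, and so none of the 9 genes, passed an adjusted p of 0.05 in this comparison (limma, Benjamini-Hochberg; 0% of all genes). At an unadjusted p under 0.05, 6 of the 9 genes were higher surrounding an artery, against 9% of all genes tested. The median difference over the 9 genes was 0.27 on the log2 scale, and over all genes it was 0.01.

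Clec3b had between 52.8 and 92.6 units of normalised signal per animal surrounding an artery (median 66.4), against 33.9 to 61.6 units (median 44.6) in normal areas. The animals of the types overlapped, but within an animal Clec3b was higher surrounding the artery in 11 of 12, the exception being control C3 (52.8 and 57.5 units). Its log2 difference was 0.53 ± 0.13 (SE, 12 animals; 95% interval 0.26 to 0.81; limma adjusted p = 0.307). Within scans 1, 2 and 3 it was 0.72, 0.24 and 0.64.

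Gsn ranged from 139.1 to 373.2 units surrounding an artery (median 213.9), against 44.0 to 228.2 units (median 155.5) in normal areas. Here too C3 alone went the other way, and the low end of the normal areas was made by T14 (44.0 units) and C40 (48.0 units), both on scan 2. These values lay near the background. The negative probe was at 53.2 units in the normal area of T14 and at 40.8 and 43.6 units in those of C40. The log2 difference of Gsn was 0.65 ± 0.19 (SE; 95% interval 0.26 to 1.04; limma adjusted p = 0.307). By scan it was 0.34, 0.80 and 0.81.

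Dcn, the first of the matrix genes, had 80.3 to 357.7 units surrounding an artery (median 215.9), against 51.1 to 232.8 units (median 172.8) in normal areas. It was higher in 10 of 12 animals, all 6 tau and 4 of 6 control animals, and lower in controls C3 and C20. Its log2 difference was 0.46 ± 0.12 (SE; 95% interval 0.20 to 0.71; limma adjusted p = 0.307), with 0.40, 0.59 and 0.38 on the 3 scans.

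For Fbn1 the values were 31.5 to 103.9 units surrounding an artery (median 47.6), against 26.5 to 59.9 units (median 33.8) in normal areas. The top value was control C2, and 10 of 12 animals were higher surrounding the artery, all but T15 and C20. The log2 difference was 0.42 ± 0.11 (SE; 95% interval 0.20 to 0.64; limma adjusted p = 0.307), and 0.64, 0.37 and 0.26 by scan. Fbn1 lay near the background, as given above.

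Dpt had 35.6 to 90.3 units surrounding an artery (median 51.3), against 31.0 to 78.1 units (median 42.3) in normal areas. Its log2 difference was 0.27 ± 0.10 (SE; limma adjusted p = 0.316), higher in 10 of 12 animals, and uneven over the scans at 0.04, 0.16 and 0.59. Pi16 had 54.4 to 90.7 units surrounding an artery (median 70.1), against 41.3 to 86.3 units (median 64.2) in normal areas. The log2 difference of Pi16 was 0.19 ± 0.084 (SE; limma adjusted p = 0.344), also higher in 10 of 12 animals, with T14 and T30 the other way.

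For Lum, Pdgfra and Loxl1 no difference passed an unadjusted p of 0.05. Lum had 48.3 to 94.2 units surrounding an artery, against 48.0 to 84.6 in normal areas, Pdgfra 46.1 to 92.6 against 58.1 to 93.2, and Loxl1 26.4 to 61.8 against 28.1 to 97.3, so that the types overlapped over most of their ranges. The 95% intervals of their log2 differences were -0.14 to 0.17 for Lum, -0.24 to 0.06 for Pdgfra and -0.27 to 0.08 for Loxl1. Pdgfra, the receptor gene that defines fibro-adipogenic progenitors, was higher surrounding the artery in 5 of 12 animals. Mfap5, which was not tested, differed by 0.20 ± 0.30 surrounding an artery (SD; higher in 9 of 12 animals), by 0.27 ± 0.32 in the nerve bundle (11 of 12) and by 0.08 ± 0.51 in central nuclei (7 of 11).

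Calls depended on how the fit estimates a gene's variance. With the variance trend set against a gene's mean level instead of its mean difference, an alternative added after the first results were seen, 36 genes passed, among them Clec3b (adjusted p = 0.0127), Gsn (0.0285), Dcn (0.0361) and Fbn1 (0.0444; limma). With no trend, 5 genes passed, Clec3b (limma adjusted p = 0.047) among them.

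**Figure D1:**
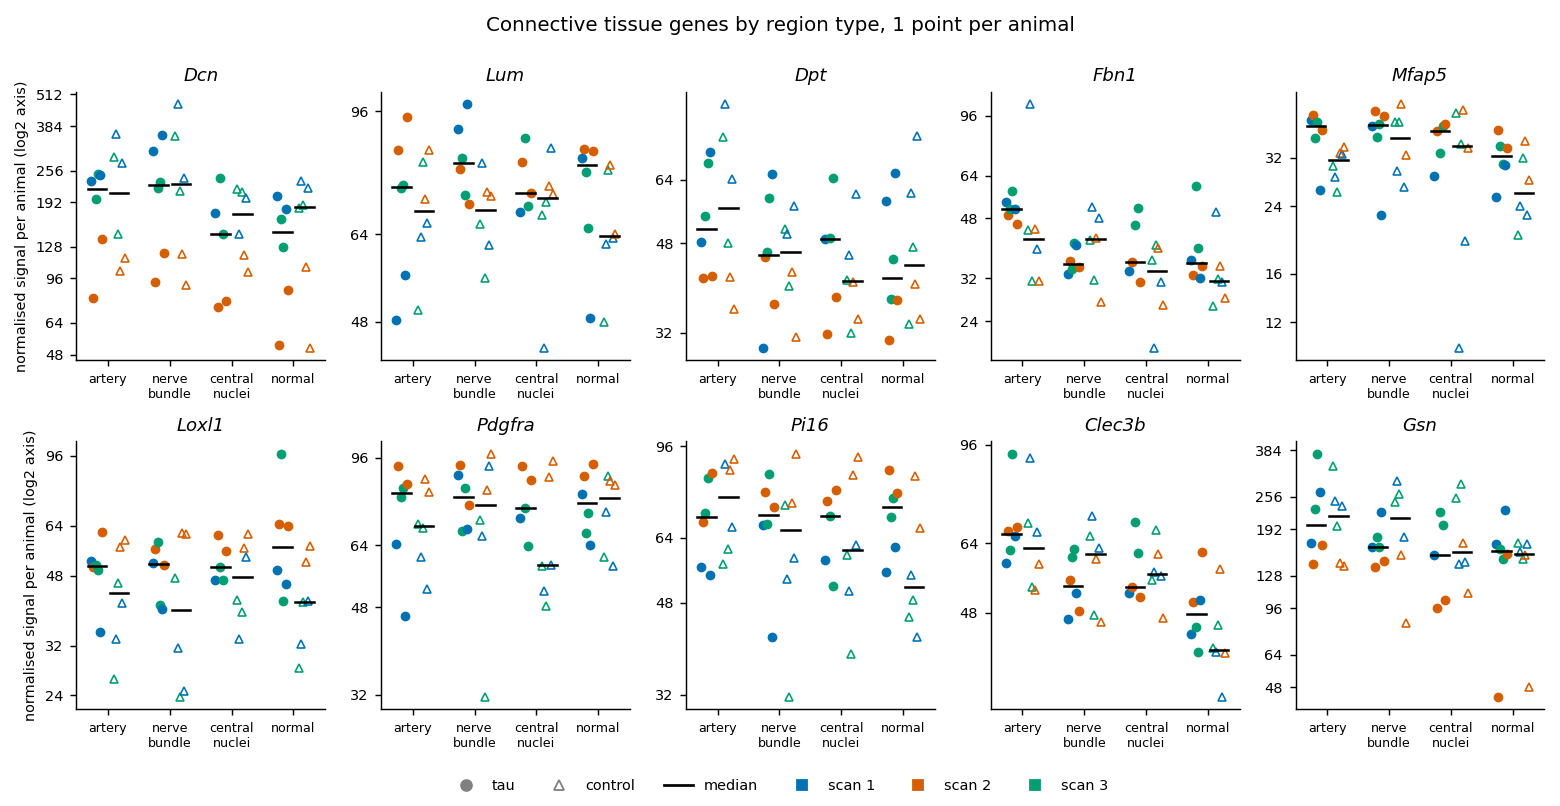
Normalised signal of each of the 10 genes (vertical, log2 axis) by area type (horizontal), with 1 point per animal, tau animals as filled circles left of control animals as open triangles, colour for the scan and black bars for group medians. Clec3b is lowest in normal areas, where the median of all 12 animals is 44.6 units, set beside 66.4 units surrounding an artery, while Pdgfra spans 46.1 to 92.6 units surrounding an artery and 58.1 to 93.2 units in normal areas.

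**Figure D2:**
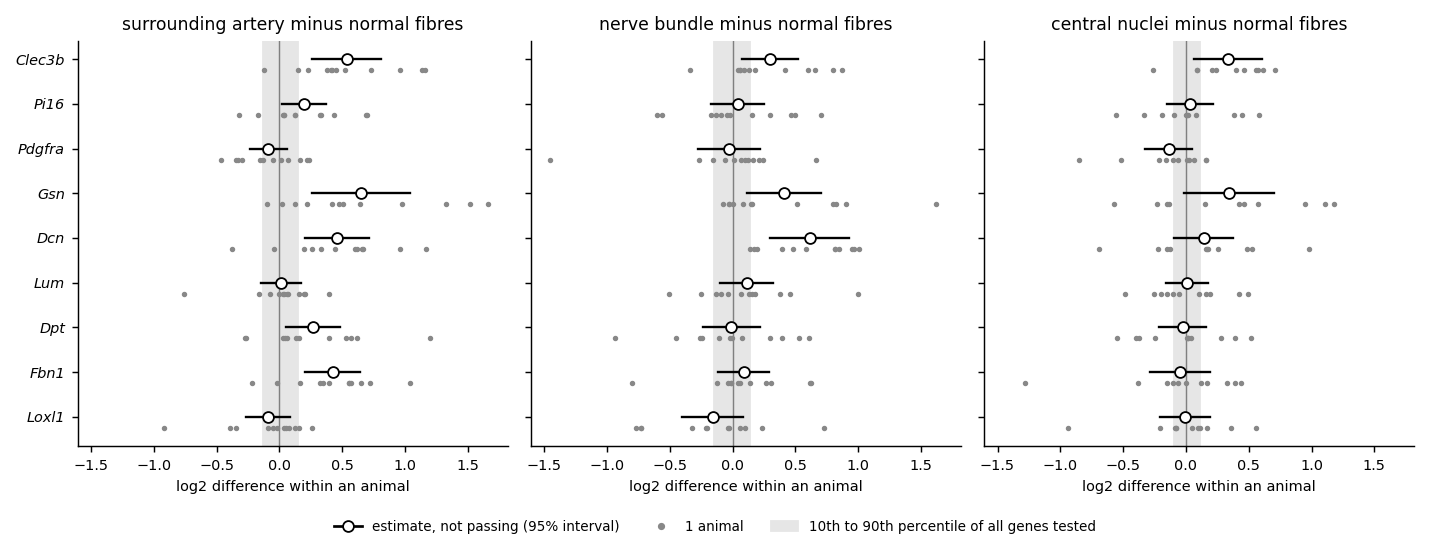
Log2 difference within an animal (horizontal) from normal areas for areas surrounding an artery, nerve bundle and central nuclei, for the 9 tested genes; open circles and bars give the estimate and its 95% interval, small dots single animals and the grey band the 10th to 90th percentile of all genes. The estimates of Clec3b, Gsn, Dcn, Fbn1, Dpt and Pi16 lie to the right of the band in the artery panel and Dcn is farthest right among the 9 genes in the nerve bundle panel.

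In nerve bundle areas Dcn stood out among the 9 genes. It had 90.7 to 468.9 units in nerve bundle areas (median 223.8), against 51.1 to 232.8 units (median 172.8) in normal areas, and it was higher in the nerve bundle in all 12 animals. The log2 difference was 0.61 ± 0.15 (SE; 95% interval 0.30 to 0.93), or 1.53-fold, and 0.67, 0.57 and 0.60 on scans 1, 2 and 3.

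That Dcn difference had the lowest p of the 10188 genes in the nerve bundle comparison, with a limma adjusted p of 0.825, so that 0% of genes passed. It passed with the variance trend against the mean level (limma adjusted p = 0.0167) and with no trend (limma adjusted p = 0.0355), both added after the first results were seen. Gsn (0.41 ± 0.14 SE, 9 of 12 animals) and Clec3b (0.30 ± 0.11 SE, 11 of 12 animals) were the other genes with an unadjusted p under 0.05, which makes 3 of 9 higher, against 3.27% of all genes. For Gsn all 6 control animals were higher in the nerve bundle and 3 of 6 tau animals. Tau minus control in this Gsn difference ranged from -0.51 to 0.15 over all settings run and passed in none (limma adjusted p of 0.789 to 0.990).

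Fbn1, Dpt and Pi16 differed between nerve bundle and normal areas by 0.09 ± 0.098, -0.01 ± 0.11 and 0.04 ± 0.10 (SE), and Lum, Pdgfra and Loxl1 by 0.11 ± 0.10, -0.03 ± 0.12 and -0.16 ± 0.12. Set directly against each other within animals, areas surrounding an artery were higher than nerve bundle areas in Fbn1 (0.33 ± 0.15 SE), Dpt (0.28 ± 0.12) and Clec3b (0.24 ± 0.098), in 10, 10 and 11 of 12 animals. These 3 of 9 genes had an unadjusted p under 0.05, against 0.491% of all genes, and 0% of genes passed adjustment (limma adjusted p = 0.982 for each). Dcn was on the other side, at -0.16 ± 0.088, lower surrounding the artery in 8 of 12 animals.

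In areas with central nuclei Clec3b was higher than in normal areas by 0.33 ± 0.13 (SE, 10 of 11 animals; limma adjusted p = 0.997) and was the only gene of the 9 with an unadjusted p under 0.05, against 0.991% of all genes; 0% passed adjustment. Clec3b had 47.0 to 69.8 units there (median 55.9), and in 9 of the 11 animals with all 4 types its lowest value was that of normal areas. Gsn differed from normal areas by 0.34 ± 0.17 (SE; 95% interval -0.02 to 0.70), Dcn by 0.14 ± 0.11 (-0.09 to 0.38) and Pdgfra by -0.14 ± 0.091 (-0.33 to 0.05).

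Against central nuclei, areas surrounding an artery were higher at an unadjusted p under 0.05 in 5 of 9 genes (2.09% of all genes; 0% passed adjustment, with limma adjusted p = 0.749 for each): Fbn1 (0.45 ± 0.20 SE), Gsn (0.35 ± 0.14), Dcn (0.31 ± 0.14), Dpt (0.30 ± 0.12) and Clec3b (0.21 ± 0.097). Nerve bundle areas were higher than central nuclei areas in Dcn (0.44 ± 0.15 SE, 9 of 11 animals; limma adjusted p = 0.832), 1 of 9 genes against 2.44% of all, and 0% passed adjustment. The 6 pairwise comparisons of types share animals and areas and are not independent. In the 11 animals with all types, the highest value fell surrounding the artery in 8 for Clec3b, 8 for Gsn, 8 for Fbn1 and 7 for Dpt, and in the nerve bundle in 6 for Dcn.

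The area labels were checked against defining markers. Acta2, the smooth muscle actin gene, was higher surrounding an artery than in normal areas in 12 of 12 animals, by 1.14 with an SD of 0.81 between animals, and in nerve bundle areas in 10 of 12, by 0.83. Acta1, the actin gene of myofibres, differed by 0.04 surrounding the artery and by 0.00 in the nerve bundle. The summed signal of 12 myofibre markers had medians of 170148 units surrounding an artery and 170865 in normal areas. The summed signal of 5 smooth muscle markers was 286 to 815 units surrounding an artery (median 374), against 244 to 437 units (median 293) in normal areas, and that of 8 macrophage markers 231 to 664 (median 334), against 209 to 373 (median 292). Summed endothelial markers had medians of 527 and 518 units in those types, and 7 Schwann cell markers 496 units in the nerve bundle and 414 in normal areas. No gene of the table was at 0 (lowest value 2.26 units), so a value above 0 says nothing about detection. Of the summed markers, 4 of 8 for macrophages and 5 of 7 for Schwann cells passed the filter on low values. The part of these cell types in the differences of the 9 genes was not tested.

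Related genes were counted in lists, and no listed gene passed adjustment between area types. Among 18 other fibro-adipogenic progenitor and fibroblast markers, 7 were higher surrounding an artery than in normal areas at an unadjusted p under 0.05 and 0 lower (median 0.15), where 9% of all genes were higher. For the interstitial collagens it was 3 of 10 (median 0.11), for elastic fibre genes 2 of 6 (median 0.08), and for leucine-rich proteoglycan and fibril organiser genes 2 of 10 (median 0.01). For ligand and receptor genes of the platelet-derived growth factor family it was 0 of 5 (median -0.12), and for the TGF-beta pathway 0 of 12 (median 0.00). All genes had a median of 0.01 in this comparison. In lists of 5 to 12 genes a count of 1 or 2 rests on few genes, and no list was tested against the share over all genes. Smooth muscle markers were higher in 3 of 5 (median 0.30), pericyte markers in 3 of 6 (0.14), adipocyte markers in 2 of 6 (0.07), endothelial markers in 2 of 9 (0.08) and Schwann cell markers in 2 of 5 (-0.04). No macrophage (4 tested, median 0.26), myofibre (12), tendon (4) or satellite cell marker (3) was, and 0 perineurial markers could be tested. In the nerve bundle, 3 of the 18 other progenitor and fibroblast markers (median 0.11), 2 of 10 collagens (0.12) and 2 of 5 smooth muscle markers (0.19) were higher than in normal areas at an unadjusted p under 0.05, against 3.27% and a median of -0.01 for all genes. The proteoglycan and fibril organiser genes, the class of Dcn, had 1 of 10 (-0.03), elastic fibre genes 1 of 6 (0.06), the PDGF family 0 of 5 (-0.06) and the TGF-beta pathway 1 of 12 (-0.03). Schwann cell markers had 1 of 5 (0.05), pericyte markers 1 of 6 (0.11), endothelial markers 1 of 9 (-0.02) and adipocyte markers 1 of 6 (0.04). Macrophage, myofibre, tendon and satellite cell markers had 0.

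The second comparison set tau against control animals in each area type, with scan as a covariate. No gene passed adjustment in areas surrounding an artery, nerve bundle, central nuclei or normal areas, or over the mean of the 3 types that all animals had (0% each), and the animals of both groups overlapped in every one of the 9 genes. All genes together had medians of 0.06 to 0.11 higher in tau, and the values of single genes are to be read against that shift. Background and depth also differed: the negative probe averaged 38.4 ± 8.24 units in tau and 32.3 ± 9.66 in control areas (SD, 39 and 41 areas), and its median was higher in tau on scan 1 (28.4 against 24.4) and scan 3 (39.0 against 30.7) and close in both on scan 2 (46.0 against 46.2). Median total counts were 1499808 in tau and 744212 in control areas. The part of background and depth in the tau differences was tested only through the alternatives given below. At an unadjusted p under 0.05 in either direction there were 0 of 9 genes surrounding an artery (12.2% of all genes), 0 in the nerve bundle (12.5%), 2 in central nuclei (20.6%), 2 in normal areas (13.6%) and 1 over the mean of 3 types (19.8%).

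Loxl1 and Pi16 gave the 2 in normal areas. Loxl1 had 41.5 to 97.3 units in tau animals (median 56.8), against 28.1 to 57.0 units in control animals (median 41.3), a log2 difference of 0.50 ± 0.17 (SE, 6 and 6 animals; limma adjusted p = 0.228). Tau animal T15 made the top value, and within scans 1, 2 and 3 the difference was 0.37, 0.24 and 0.88. Pi16 had 54.9 to 86.3 units in tau animals (median 73.3), against 41.3 to 84.3 units in control animals (median 51.4), and a log2 difference of 0.35 ± 0.11 (SE; limma adjusted p = 0.221), with 0.29, 0.13 and 0.63 by scan. Both genes correlated with the negative probe over all areas. Within scans 1, 2 and 3 the Pearson r was 0.55, -0.10 and 0.61 for Loxl1 and -0.02, 0.01 and 0.51 for Pi16. The negative probe averaged 37.3 units in tau and 34.1 in control normal areas. As a ratio to it the differences were 0.36 for Loxl1 and 0.20 for Pi16, and with it as a covariate beside scan 0.36 and 0.34 (limma adjusted p between 0.412 and 0.602). In normal areas 9.2% of all genes were higher in tau at an unadjusted p under 0.05, with a median difference of 0.06. The 12 myofibre markers had a median of -0.32 (3 higher and 1 lower), the satellite cell markers 0.27 (2 of 3 higher), the endothelial markers 0.09 (3 of 9 higher), the Schwann cell markers 0.17 (1 of 5 higher) and the macrophage markers 0.19 (0 of 4). Adipocyte markers had 0.09 (1 of 6 higher), and smooth muscle (0.03), pericyte (0.06) and tendon markers (0.01) had 0 higher. The part of these cell types in the differences of Loxl1 and Pi16 was not tested. Of the 18 other progenitor and fibroblast markers, 2 were higher and 1 lower in tau normal areas (median 0.03). Elastic fibre genes had 0 of 6 higher (-0.03), interstitial collagens 0 of 10 (0.01) and the PDGF family 0 of 5 (-0.00). The proteoglycan and fibril organiser genes had 1 of 10 higher (0.15) and the TGF-beta pathway 1 of 12 (0.07).

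Over the mean of 3 types, Loxl1 differed by 0.35 ± 0.12 (SE; 95% interval 0.10 to 0.61; limma adjusted p = 0.143), at 39.7 to 66.2 units in tau and 32.3 to 59.1 units in control animals. Within scans the difference was 0.42, -0.00 and 0.64. In central nuclei Gsn differed by -0.28 ± 0.13 (SE; limma adjusted p = 0.227), with 95.9 to 223.9 units in 5 tau and 110.0 to 285.4 units in 6 control animals, and Pdgfra by 0.23 ± 0.11 (SE; limma adjusted p = 0.24), with 63.8 to 92.3 units in tau and 48.4 to 94.7 units in control animals. Taken as a ratio to the negative probe, Gsn (-0.56; limma adjusted p = 0.0294) and Dcn (-0.55; limma adjusted p = 0.0317) passed adjustment in central nuclei, as did 1393 of all genes, but the denominator itself was higher in tau there, at 40.7 ± 7.03 units against 33.3 ± 9.40 in control areas (SD, 11 areas each). In the main fit Dcn was at -0.26 in central nuclei (limma adjusted p = 0.284). With the negative probe as a covariate beside scan, the differences were -0.41 for Gsn and -0.52 for Dcn and neither passed (limma adjusted p = 1 each). Pdgfra had the same adjusted p in that fit, so not passing there says nothing particular to Gsn or Dcn. Pdgfra was at -0.04 as a ratio and -0.05 with the covariate, so its higher value in tau was not seen on either. Lum in the nerve bundle had 70.7 to 98.2 units in tau and 55.4 to 80.8 units in control animals, a difference of 0.27 ± 0.12 (SE; limma adjusted p = 0.399). Its mean ratio to the negative probe was 2.32 in tau and 2.43 in control animals there. Over all settings run this Lum difference ranged from -0.06 to 0.31. Over the mean of 3 types the differences were 0.11 (95% interval -0.08 to 0.30) for Pdgfra and 0.05 (-0.14 to 0.24) for Clec3b, and -0.15 (-0.43 to 0.13) for Dcn. Of the 18 other progenitor and fibroblast markers, 1 had an unadjusted p under 0.05 there (median 0.02, against 0.09 for all genes). Over the same mean 16.1% of all genes were higher in tau at an unadjusted p under 0.05. The Schwann cell markers were higher in 3 of 5 (median 0.37), the satellite cell markers in 2 of 3 (0.23), the endothelial markers in 3 of 9 (0.13) and the myofibre markers in 1 of 12 (-0.14). Smooth muscle (median -0.11) and pericyte markers (-0.02) each had 1 lower and 0 higher. Adipocyte (-0.03), tendon (0.08) and macrophage markers (0.09) had 0 in either direction.

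**Figure D3:**
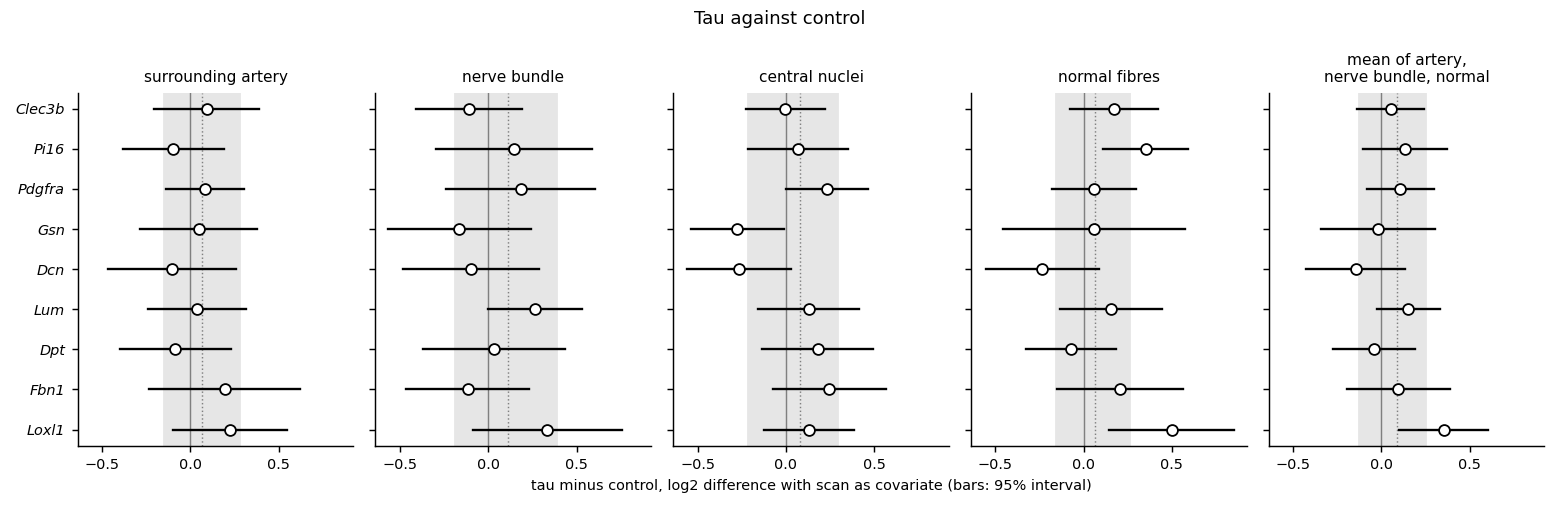
Tau minus control on the log2 scale (horizontal) for the 9 tested genes in each area type and over the mean of 3 types, with 95% intervals; the grey band is the 10th to 90th percentile of all genes and the dotted line their median. Loxl1 and Pi16 in normal areas have intervals above 0, 0.14 to 0.85 and 0.11 to 0.59.

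Whether the difference between area types depended on tau was tested on the within-animal differences, and no gene passed for artery, nerve bundle or central nuclei minus normal (0% each). Pi16 had the lowest unadjusted p of the 9 genes. In tau animals its difference between areas surrounding an artery and normal areas was -0.03 ± 0.18 (SD, n = 6), against 0.42 ± 0.25 in control animals (SD, n = 6). The 6 control animals were all higher surrounding the artery and 4 of 6 tau animals were, and the difference of differences was -0.45 ± 0.14 (SE; limma adjusted p = 0.857). For Clec3b, Gsn, Dcn and Fbn1 it was -0.08, -0.01, 0.13 and -0.01, with standard errors of 0.26, 0.38, 0.26 and 0.21.

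The third comparison was between scans. The negative probe was 25.8 ± 5.24 units on scan 1 (SD, 27 areas), 46.1 ± 2.99 on scan 2 (25 areas) and 34.8 ± 5.16 on scan 3 (28 areas). An F test over the 3 scans on animal means called 71.6% of all genes, and 6 of the 9 genes were called, a share close to that background. Scan and the 4 animals on it cannot be told apart. Over all genes the median of scan 2 minus scan 1 was 0.21 on the log2 scale, against which the values below are to be read.

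Dcn had the widest gap, at 242.9 to 339.3 units per animal on scan 1, 73.3 to 113.1 on scan 2 and 179.2 to 264.5 on scan 3. No animal of scan 2 reached the range of the others, and scan 2 minus scan 1 was -1.51 on the log2 scale (limma F test adjusted p = 4.18e-06). Scan 2 minus scan 1 was also below 0 for Gsn (-0.80, limma F test adjusted p = 0.00102) and Dpt (-0.65, limma F test adjusted p = 0.00151). It was above 0 for Loxl1 (0.56), Pdgfra (0.38) and Pi16 (0.48), with limma F test adjusted p of 0.00666, 0.00908 and 0.0123. The F test covers all 3 scans and has no direction, and single pairs of scans were not tested.

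Directions between scans depended on the scale for some genes. Taken as a ratio to the negative probe, Pdgfra, Pi16 and Loxl1 turned lower on scan 2 than on scan 1, by -0.50, -0.39 and -0.31 on the log2 scale, and Lum, at 0.23 before, stood at -0.65. Over the 80 areas the normalised signal of Loxl1 had a Pearson r of 0.68 with the negative probe, Pdgfra 0.60 and Pi16 0.52, against -0.71 for Dcn, -0.56 for Dpt and -0.51 for Gsn. Within scans 1, 2 and 3 the r of Loxl1 was 0.55, -0.10 and 0.61, and that of Dcn -0.41, -0.18 and -0.29. Areas share animals and scans, so each r is a description. Clec3b was level in normalised signal across scans (means of 5.81, 5.81 and 5.83 on the log2 scale) but not in its ratio to the negative probe, which was 2.20, 1.19 and 1.65.

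**Figure D4:**
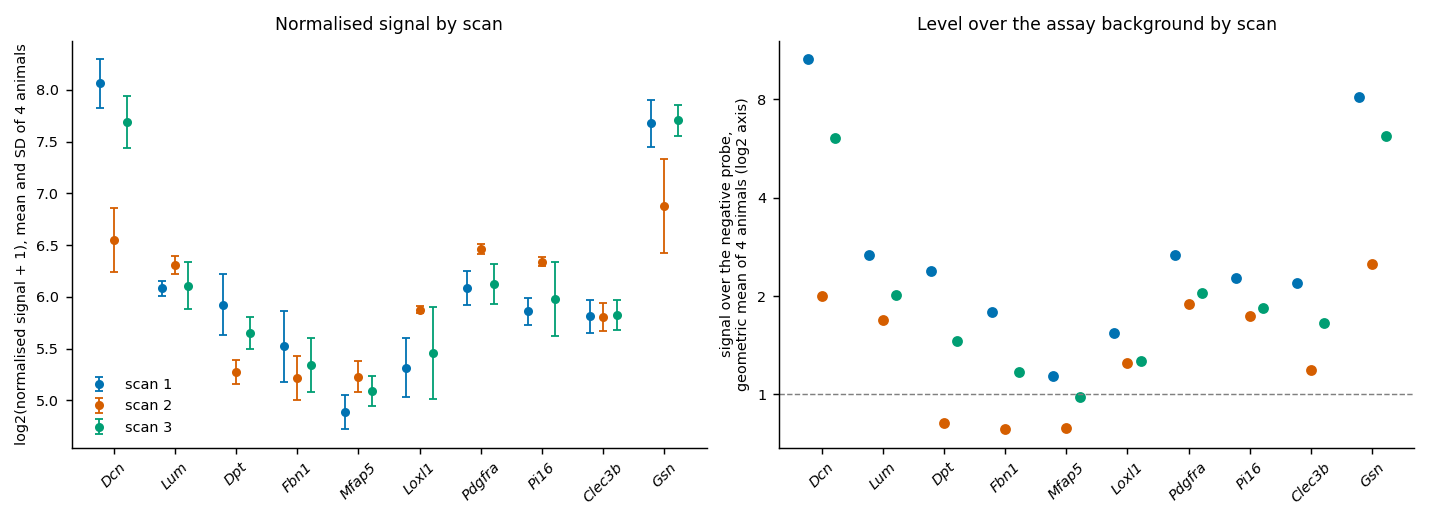
Left, mean and SD over 4 animals of the log2 normalised signal on scans 1, 2 and 3 for each of the 10 genes; right, the geometric mean of the signal over the negative probe on a log2 axis, with the dashed line at a ratio of 1. On the right all 10 genes are lowest on scan 2, where the negative probe is highest. On the left Dcn, Gsn, Dpt and Fbn1 are lowest on scan 2 and Clec3b is level, while Loxl1, Pdgfra, Pi16, Lum and Mfap5 are highest there.

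Likeness among the 9 genes was uneven. Over 47 animal by type means, after the mean of each scan was subtracted, Dcn and Gsn had a Pearson r of 0.73, Clec3b and Gsn 0.62, Clec3b and Fbn1 0.60 and Clec3b and Dcn 0.51. Among Pi16, Pdgfra, Lum and Loxl1, r was 0.53 for Pi16 and Pdgfra, 0.47 for Lum and Loxl1, 0.42 for Pi16 and Loxl1, 0.40 for Lum and Pdgfra, 0.30 for Loxl1 and Pdgfra and 0.21 for Lum and Pi16. Between these genes and the others r ran from -0.24 (Gsn and Loxl1) to 0.38 (Clec3b and Pi16), so the values within and between overlapped. Lum and Dcn, both proteoglycans of collagen fibrils and neighbours on chromosome 10, had an r of 0.24. The points share animals, scans and background, so these values are a description.

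**Figure D5:**
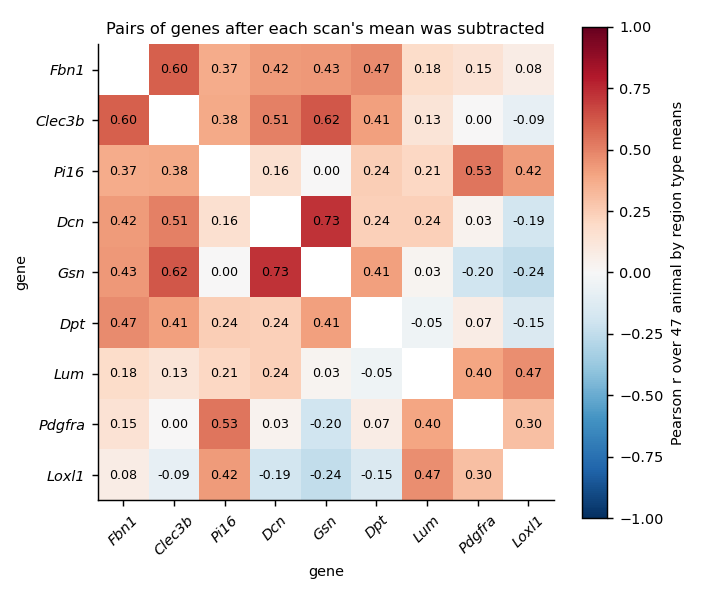
Pearson r for each pair of the 9 tested genes (both axes) over 47 animal by type means with scan means subtracted, red above and blue below 0. Dcn, Gsn, Clec3b, Fbn1 and Dpt have r of 0.24 to 0.73 with each other, and Pdgfra and Loxl1 are at -0.24 to 0.15 with them.

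By the same measure, the genes outside the 10 whose pattern was most like the mean of the standardised 9 genes were Col3a1 (r = 0.77), Col1a1 (0.72), Cd34 (0.70), Apoe (0.69) and Col6a2 (0.69), out of 10179 genes over 47 points. Col3a1, Col1a1 and Col6a2 encode chains of collagens III, I and VI, Cd34 encodes a surface sialomucin of progenitor and endothelial cells, and Apoe encodes apolipoprotein E. Surrounding an artery, Col1a1 was higher than in normal areas by 0.37 ± 0.11 (SE, 11 of 12 animals) and Col3a1 by 0.36 ± 0.10 (SE, 10 of 12 animals, limma adjusted p = 0.307 each). The genes of like pattern were picked on these same values, with the differences between area types left in. Their higher values surrounding an artery are therefore no separate result. Of the 9 genes, Fbn1 (0.61) and Clec3b (0.58) had the highest r with the mean of the others, and Pdgfra (0.27) and Loxl1 (0.12) the lowest.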

How the data were processed

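Per the file headers, the authors deposited Q3-normalised probe signal on a linear scale. That quartile (Q3) was 79.1 in 78 of 80 areas. No source used here names the counting software, and the submitters' processing notes name mm10. In each area at least 99.98% of values were whole multiples of a step (tolerance 0.02), from which the total counts and Q3 counts of 10 to 300 per area were estimated. The lowest value was 1 step in 16 of 80 areas; in the others the step, and so the depth, was inferred from the spacing of the values. Intervals cover the spread between animals.

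A gene was tested when it was at least 1.5 times the negative probe in at least 10% of areas, which kept 10188 genes and left out 654. Values were taken as log2(value + 1), so that changes of low genes are understated, and averaged over the areas of a type in an animal. The animal, from the mouse id label, was the unit of replication and paired the area types. Linear models with a moderated variance and trend were fitted with limma 3.58.1 (R 4.3.3), with p-values adjusted by Benjamini-Hochberg over all tested genes at a threshold of 0.05. They were fitted to within-animal differences, to tau minus control with scan as covariate, to tau by area type, and to scan with treatment as covariate. Scans are those named in the file header, and whether a scan is a single slide is not stated there. Code was tested on simulated data. Tables and figures used the R package data.table (1.17.8), Python 3.11.15, pandas 2.3.3, numpy 2.4.6, scipy 1.17.1 and matplotlib 3.10.9.

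All 10 genes were named. Of the listed genes, at most 3 per list were to be named among those past the threshold between area types or treatments, and none passed; listed genes past the threshold between scans are not named. Acta2 and Acta1 serve as checks of the labels. The 5 genes of most like pattern are also given. The genes and lists were chosen with earlier results of these data known. Those results showed Y-linked genes at odds with the labelled sex, so scan, not labelled sex, was the covariate.

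limma's trend in a fit to differences runs against the mean difference. Because it gave genes of large difference a wide error and no calls, the trend against the mean level was put in its place for a time and then returned to an added alternative, both after results were seen. In 50 genes with a log2 difference over 0.4 between areas surrounding an artery and normal areas, the residual variance averaged 1.61 times the prior variance with the first trend, 12.7 times with the second and 10.4 times with no trend. Over all genes tested it averaged 1.22, 1.21 and 1.30 times. The 50 genes were picked by the same difference that the first trend follows, so their ratios cannot decide between the fits. Other alternatives changed the pseudocount (5), filter, normalisation, background, covariates, pairing, areas and animals.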

Additional observations from a re-analysis of the deposited data

Results flagged for a closer look

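Each gene was checked in each group of 5 or 6 animals of 1 area type for an animal whose gap to its neighbour was large against the whole range of the group (Dixon's criterion). Chance marks about 1 in 20 groups, and 10 of 80 were marked here. Gsn in normal areas was marked in both treatments, by T14 at 44.0 units with the other tau animals at 148.2 to 228.2, and by C40 at 48.0 units with the other control animals at 147.6 to 170.0. Both animals lay on scan 2, and both values were near the negative probe of their areas. These animals had the largest within-animal differences of Gsn between artery and normal areas. Within scans 1 and 3 that difference was 0.34 and 0.81.

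Fbn1 was marked surrounding an artery by control C2 at 103.9 units, with the other control animals at 31.5 to 44.6, and in normal areas by T15 at 59.9 units, with the other tau animals at 32.2 to 39.2. Clec3b surrounding an artery was marked by T20 at 92.6 units, with the other tau animals at 59.0 to 68.5. Tau animal T30 was the lowest in nerve bundle areas for Pi16 (41.3 units, others 67.8 to 85.0) and for Mfap5 (22.7 units, others 36.3 to 42.4), and for Mfap5 surrounding an artery (26.4 units, others 36.1 to 41.3). Among control animals, Pdgfra in the nerve bundle was lowest in C20 (31.6 units, others 67.0 to 97.9), whose single nerve bundle area had the lowest total count of the 80 (145487, Q3 count 10), so that this value was 4 counts, and Lum in central nuclei was lowest in C2 (44.1 units, others 68.1 to 85.0).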

How the results depend on the processing

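Apart from the 2 settings of the variance trend added after seeing the data, none of the 9 genes passed adjustment between area types or in tau by area type under any alternative run, leaving out each animal included (0 in each case). With those settings the calls were 4 of 9 genes and 36 of all genes (trend against the mean level) and 1 and 5 (no trend) surrounding an artery, and 1 gene, Dcn, in the nerve bundle under each. The differences of Clec3b (0.42 to 1.95), Gsn (0.56 to 1.35), Dcn (0.39 to 1.07), Fbn1 (0.37 to 0.99) and Dpt (0.18 to 0.90) surrounding an artery and of Dcn in the nerve bundle (0.54 to 1.26) stayed positive in all settings run, whereas Pi16 ran from -0.03 to 0.52. Without the pairing by animal (no replicate block), adjusted p values from limma surrounding an artery were 0.0533 for Clec3b, 0.537 for Gsn and 0.739 for Dcn and Fbn1, and 0.152 for Dcn in the nerve bundle, where 1 gene passed.

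Counts of all genes for tau in central nuclei were 0 in the report, but 448 with the stricter filter (2 times the negative probe in 50% of areas), 235 with quantile normalisation, 175 with the background subtracted, 1393 as a ratio to it, 97 with 1 area per animal and type, 1 with scan and labelled sex, and 0 to 373 leaving out 1 animal (107 without C3, 373 without T7). As a ratio to background, 2 of the 9 genes passed there, Dcn (-0.55, adjusted p = 0.0317) and Gsn (-0.56, adjusted p = 0.0294; limma), both lower in tau. Elsewhere the counts for tau were 1 with quantile normalisation and 0 to 1 leaving out 1 animal in the nerve bundle, 51 with scan and labelled sex and 0 to 23 in normal areas, 92 with the stricter filter surrounding an artery, and 270 with that filter, 1 with quantile normalisation and 0 to 372 over the mean of 3 types (193 without C3, 167 without T30, 372 without T7). For tau by area type surrounding an artery it was 1 with the stricter filter and 1 with quantile normalisation. The causes were not tested. Between scans, 3 genes and 2721 of all genes passed with the stricter filter, leaving out 1 animal gave 5 to 6 and 6742 to 7610, Loxl1 was -0.41 with the background subtracted, and as ratios Lum was -0.65, Loxl1 -0.31, Pdgfra -0.50 and Pi16 -0.39.

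A count test on recovered counts was not run; the lowest value equalled 1 step in 16 of 80 areas, so most depths are estimates. Depth limits the genes near the background, Fbn1, Loxl1, Dpt and Mfap5, and 13 areas had a Q3 count of 30 or less.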
